A study of Homo sapiens with 18 samples.

Results

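The marks H3K4me3 and H3K27me3 were examined at 9 genes that the androgen receptor regulates in prostate cells: TMPRSS2, FKBP5, ABCC4, ZBTB10, SLC45A3, NDRG1, STEAP4, PMEPA1 and TRPM8. They are 9 of the 19121 protein-coding RefSeq genes with a known strand, and they were chosen as a named group of androgen-regulated genes. The cells were V16D, a castration-resistant prostate cancer line derived from LNCaP. V16D/CTL cells carried a control lentivector and V16D/H19 cells carried a lentivector that overexpresses the long noncoding RNA H19. Both lines were grown in RPMI1640 with fetal bovine serum. Chromatin immunoprecipitation and sequencing (ChIP-seq) was done for H3K4me3 and for H3K27me3, with 3 libraries per line and mark that the labels call biological triplicates. The comparison asks whether the marks on these genes differed when H19 was overexpressed.

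The androgen receptor is a nuclear receptor that binds DNA when it holds androgen, mostly at enhancers far from promoters, and raises transcription of genes of the luminal prostate cell. H3K4me3 marks the nucleosomes around active start sites and is widest at genes that define a cell type. H3K27me3 is laid down by the Polycomb repressive complex PRC2 and marks silenced genes. A promoter rich in CpG dinucleotides, a CpG island, commonly carries H3K4me3 whether its gene is strongly transcribed or not, whereas a CpG-poor promoter carries it mostly where the gene is used.

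The peak lists held 20048 to 21934 H3K4me3 peaks and 55060 to 72289 H3K27me3 peaks per library, and read depth is not in them. The luminal prostate genes KRT8, KRT18, KLK3 and HOXB13 all had an H3K4me3 peak within 1 kb of the start in all 6 libraries, and none of these 4 had an H3K27me3 peak. The basal genes KRT5, KRT14 and TP63 had no H3K4me3 peak at the start in any library. Of the neuroendocrine genes, SYP had an H3K4me3 start peak in all 6 libraries. CHGB had one in 0 V16D/CTL and 2 V16D/H19 libraries, INSM1 in 0 and 1, and CHGA in none. An H3K27me3 peak lay in the gene window in all 6 libraries for CHGA, CHGB and INSM1, and in 1 library for SYP.

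Each gene was examined from 3 kb upstream of its outer RefSeq start to its end (GRCh38). None of the 9 windows held an H3K27me3 peak in any of the 6 lists. The nearest H3K27me3 peak lay between 50.5 and 473.9 kb outside the window, with a median of 180.7 kb over the 9 genes and 6 libraries. Absence of the mark was common: 71.8% of all 19121 genes had no H3K27me3 peak, as did 69% of the 9352 genes within the length range of the 9 genes, and 74.6% of the 6809 of these that also had an H3K4me3 site at the start. The peak lists do not give signal below their threshold, so a weak or diffuse H3K27me3 signal on these genes was not measurable here.

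H3K4me3 was present on all 9 genes. Peaks were merged over the 6 lists into 31 regions that overlapped the gene windows. Of these, 14 had a peak in all 6 libraries, 7 in 2 to 5 libraries and 10 in a single library. Of the 9 genes, 8 had an H3K4me3 peak within 1 kb of the outer start in all 6 libraries. TRPM8, which encodes a cold-sensing cation channel, had none there.

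The sequence at the starts, like the mark, differed among the genes. The following 250-base stretches lie directly upstream of RefSeq starts (GRCh38.p14, sequences from RefSeq) and are shown because these starts ranged from no mark to a strong one. They are written 5′ to 3′ on the strand of the gene, with each CG dinucleotide in capitals. The FKBP5 outer start stretch is chr6:35728584-35728833 (minus strand), the FKBP5 internal one is chr6:35688916-35689165 (minus strand), the ABCC4 one is chr13:95301452-95301701 (minus strand), the STEAP4 one is chr7:88306895-88307144 (minus strand) and the TRPM8 one is chr2:233917123-233917372 (plus strand).
FKBP5 outer start: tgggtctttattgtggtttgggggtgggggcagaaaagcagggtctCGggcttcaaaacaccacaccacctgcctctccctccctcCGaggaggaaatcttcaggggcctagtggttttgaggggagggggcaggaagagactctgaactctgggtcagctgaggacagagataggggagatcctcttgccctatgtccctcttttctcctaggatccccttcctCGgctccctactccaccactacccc
FKBP5 internal start: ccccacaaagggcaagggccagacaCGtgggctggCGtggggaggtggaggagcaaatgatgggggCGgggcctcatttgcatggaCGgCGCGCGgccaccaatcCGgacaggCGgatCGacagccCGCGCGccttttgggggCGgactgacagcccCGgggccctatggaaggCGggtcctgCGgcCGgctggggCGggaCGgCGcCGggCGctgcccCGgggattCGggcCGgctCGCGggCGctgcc
ABCC4 start: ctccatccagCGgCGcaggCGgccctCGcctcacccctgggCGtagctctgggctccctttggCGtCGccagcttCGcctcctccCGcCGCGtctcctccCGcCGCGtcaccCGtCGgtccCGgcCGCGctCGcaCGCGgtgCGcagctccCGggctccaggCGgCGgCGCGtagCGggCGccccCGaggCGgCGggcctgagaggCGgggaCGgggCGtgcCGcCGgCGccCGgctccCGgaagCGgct
STEAP4 start: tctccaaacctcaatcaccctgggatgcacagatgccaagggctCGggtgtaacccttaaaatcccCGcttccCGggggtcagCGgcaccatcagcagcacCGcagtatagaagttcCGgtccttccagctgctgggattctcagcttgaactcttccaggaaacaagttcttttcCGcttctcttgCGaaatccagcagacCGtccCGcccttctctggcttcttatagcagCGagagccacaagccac
TRPM8 outer start: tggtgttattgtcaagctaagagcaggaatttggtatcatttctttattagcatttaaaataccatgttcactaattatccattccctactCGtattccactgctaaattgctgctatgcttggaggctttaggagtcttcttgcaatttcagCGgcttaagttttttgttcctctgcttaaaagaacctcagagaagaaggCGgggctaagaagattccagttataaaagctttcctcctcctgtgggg
These stretches hold 3, 29, 42, 11 and 3 CG dinucleotides, in the order printed.

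RefSeq promoter sequences of 300 bases, 250 before and 50 after a start, were matched for 6 of the 9 genes, with 15 starts among them; TMPRSS2, ZBTB10 and NDRG1 had no entry. The 6 starts of TRPM8 held 1 to 5 CpG dinucleotides each, and none of them lay inside an H3K4me3 site shared by all 6 libraries. The outer FKBP5 start also held 3, against 38 at the FKBP5 internal start, 47 at ABCC4, 26 at SLC45A3 and 18 at STEAP4. PMEPA1 has 4 RefSeq starts. The 3 outer ones held 6, 18 and 41 and lay in 1 shared H3K4me3 region, and the start 20.8 kb further in held 11 and had no peak. Over all 35114 RefSeq starts, 6.51% of those with fewer than 10 CpG dinucleotides lay inside an H3K4me3 site of all 6 libraries, compared with 50.5% of those with 10 to 19, 79.3% of those with 20 to 29 and 87.3% of those with 30 or more. The median number over all starts was 14. The FKBP5 outer start and the outermost PMEPA1 start were marked at a CpG content at which few starts were. The FKBP5 mark there was weak (mean fold over input 4.99), with a peak on the start base in 5 libraries. The PMEPA1 region also holds the start with 41, so its mark cannot be assigned to the outermost start.

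**Figure D1:**
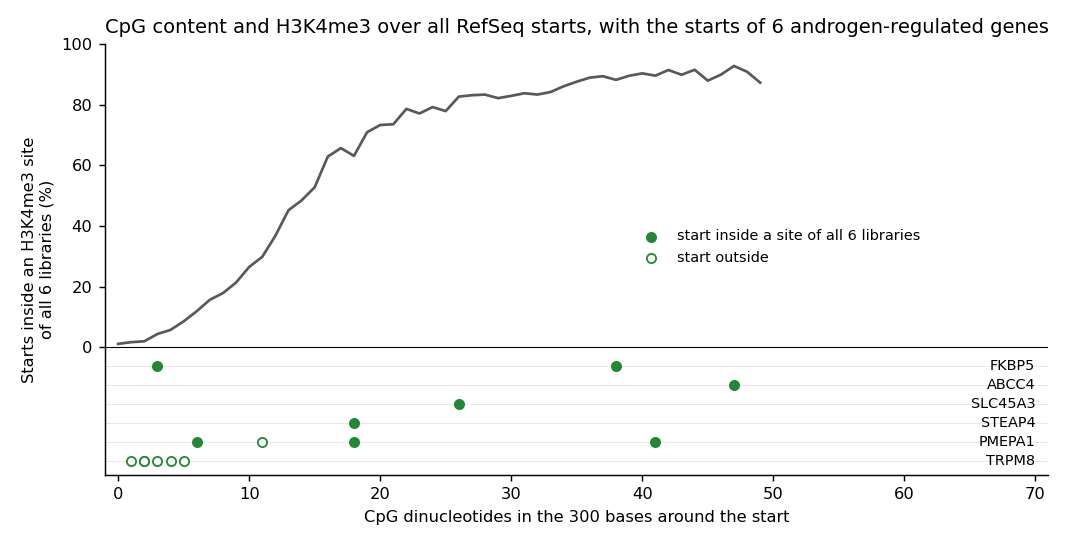
The line gives, for each number of CpG dinucleotides in the 300 bases around a RefSeq start (x axis), the percentage of starts that lie inside an H3K4me3 site of all 6 libraries (y axis), for numbers with at least 100 starts. The points below the line are the 15 starts of the 6 matched genes. All 6 TRPM8 starts lie at 5 or fewer and are open symbols (outside a site of all 6 libraries), and the FKBP5 starts lie at 3 and 38.

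The DNA element bound by the androgen receptor has 2 arms of 6 bases. The full element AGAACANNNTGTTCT, which reads the same on both strands, was found in none of the 15 sequences and in 1 of all 35114 (0.00285%). At least 1 arm, AGAACA or TGTTCT, was found in 4 of the 15: the outer FKBP5 start, the 2 outermost PMEPA1 starts and the TRPM8 start 62.8 kb into the gene. An arm was found in 14.8% of all starts.

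At the start, the strength of H3K4me3 fell into a strong and a weak class. The value used is the highest fold over input among a library's peaks in the region, given for V16D/CTL libraries 1 to 3 and then V16D/H19 libraries 1 to 3. TMPRSS2, which encodes a membrane serine protease of the luminal cell, had the values 57.0, 57.7 and 65.4 and then 62.5, 65.4 and 57.8. SLC45A3, which encodes the prostate protein prostein, had 75.0, 60.7 and 35.2 and then 48.4, 77.0 and 66.8. ZBTB10, which encodes a zinc finger transcription factor, had 67.6, 47.9 and 59.2 and then 56.3, 48.0 and 47.1. In these 3 genes the ranges of the lines overlapped.

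ABCC4 encodes an efflux transporter of cyclic nucleotides and drugs, and its start had values of 44.1, 47.5 and 45.8 and then 51.7, 48.2 and 58.4. All 3 V16D/H19 libraries were above the V16D/CTL libraries. It was the single region of the 14 in all 6 libraries whose fold over input did not overlap between the lines in that direction, and no region did so in the lower direction. Over all 15811 sites with a peak in all 6 libraries, 6.84% were higher in V16D/H19 without overlap and 4.63% were lower. The fitted difference at the ABCC4 start was 0.15 (log2, SE 0.28, limma adjusted p = 0.953).

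NDRG1, a stress- and androgen-induced gene linked to growth arrest, had start values of 63.2, 35.7 and 52.7 and then 43.7, 56.4 and 43.3. PMEPA1, which encodes a membrane protein that dampens TGF-beta and androgen signalling, had 55.2, 34.8 and 57.1 and then 42.3, 43.9 and 43.3. STEAP4, a metalloreductase gene, was in the weak class with 14.9, 7.64 and 10.8 and then 5.08, 7.36 and 7.69. The lowest V16D/CTL value of STEAP4 lay below the highest V16D/H19 value, so the lines overlapped.

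The mean fold over input of the STEAP4 start region was 8.91, lower than at all but 2.47% of the 10402 start sites of protein-coding genes with a peak in all 6 libraries. Where several regions lay within 1 kb of a start, the strongest was taken as the start site. For FKBP5 this was the region just inside the outer start (+427 to +1504), which stood at 3.25% on the same scale. The FKBP5 region on the outer start itself had a mean fold of 4.99. TMPRSS2 stood at 87.8%, SLC45A3 at 86.9%, ZBTB10 at 69.7%, ABCC4 at 53.8%, NDRG1 at 53.3% and PMEPA1 at 44.1%. The median start site had a fold over input of 48.1.

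**Figure D2:**
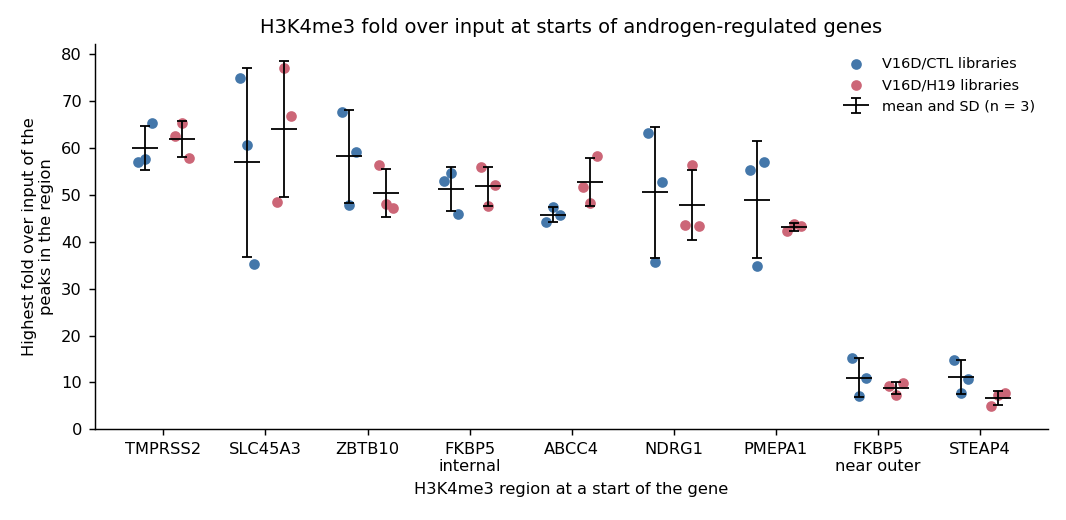
Highest fold over input of the H3K4me3 peaks in the region at a start (y axis) for the 8 genes with a start peak, with the FKBP5 regions just inside the outer start (near outer) and at the internal start apart. Points are single libraries and bars the mean and SD (n = 3). The FKBP5 region near the outer start and the STEAP4 start lie at 15.3 or less in every library, and the lines overlap at every start shown except ABCC4.

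No region of the 9 genes passed the test for a difference in fold over input. The limma test on log2 values, adjusted over all 15811 sites, called 0 sites in the genome, which is 0% of those tested, with 1049 at an unadjusted p under 0.05. Among the 14 regions of these genes 0 were called, 1 had an unadjusted p under 0.05, and their lowest adjusted p was 0.722. That was the STEAP4 start, with a log2 difference of -0.75 (SE 0.34). The median log2 difference of the 14 regions was -0.15, compared with -0.02 over all sites and -0.002 over the 10402 start sites. It lay between -0.21 and -0.07 with 1 library left out, with -0.07 without V16D/H19 replicate 3 and -0.08 without V16D/CTL replicate 1.

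The length of DNA under H3K4me3 was the other readout of the same regions. TMPRSS2 had 5482, 5835 and 7169 bases under peaks at its start in V16D/CTL, compared with 7579, 7327 and 7348 in V16D/H19. The region ran from -1234 to +6588 relative to the start (chr21:41501570-41509392), and its mean length of 6.79 kb was above that of 99.7% of the 10402 start sites. ZBTB10 had 5268, 5370 and 5639 bases and then 5230, 5082 and 5032. PMEPA1 had 4442, 3785 and 4612 bases and then 4622, 5052 and 4392. The ZBTB10 libraries did not overlap, with V16D/H19 lower, and those of PMEPA1 did. SLC45A3 had 4845, 4512 and 4565 bases and then 4343, 4516 and 3680. NDRG1 had 3480, 3291 and 3198 bases and then 4359, 4077 and 2930.

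These were wide regions for a start site: in mean length ZBTB10 stood at 99.1%, PMEPA1 at 97.9%, SLC45A3 at 97.7% and NDRG1 at 93.5% of all start sites. ABCC4, with 2.74 kb, stood at 78.8%. STEAP4 and the FKBP5 region just inside the outer start, with 0.662 and 0.695 kb, stood at 3.38% and 3.94%. Of the 8 start sites, 6 were in the widest 25%, above 2619 bases, and the other 2 were in the narrowest 25%.

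**Figure D3:**
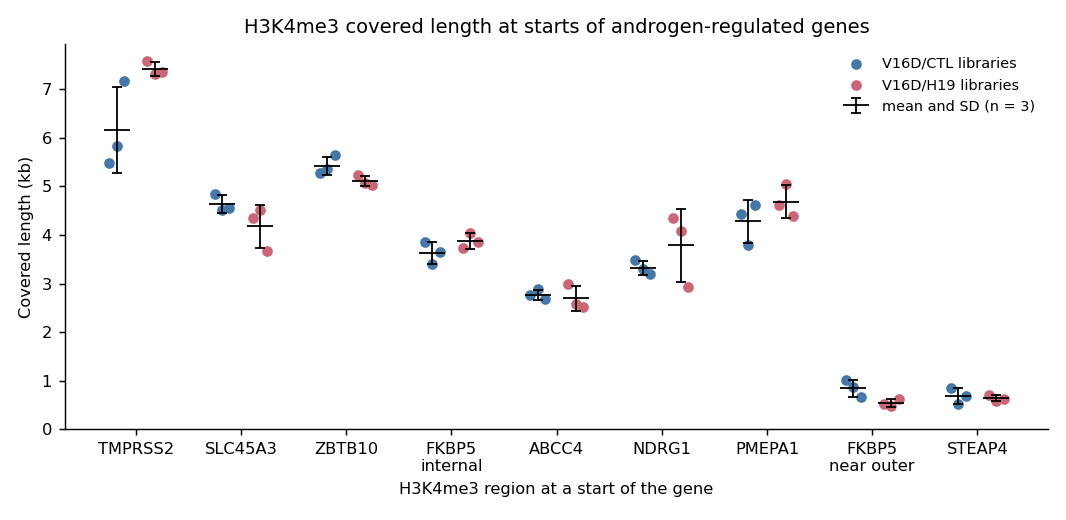
Bases under H3K4me3 peaks in the region at a start (y axis, kb) for the same starts, with single libraries as points and the mean and SD (n = 3) as bars. The 3 V16D/H19 libraries of TMPRSS2 lie at 7327 to 7579 bases, above the V16D/CTL libraries, and those of ZBTB10 and of the FKBP5 region just inside the outer start (near outer) lie below the V16D/CTL libraries.

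At TMPRSS2 the marked stretch was longer in all 3 V16D/H19 libraries than in any V16D/CTL library. Its start region was split into 2, 1 and 3 peaks in V16D/CTL and was 1 peak in each V16D/H19 library. At this region the log2 difference in covered length was 0.28 (SE 0.09), but it did not pass the limma test (adjusted p = 0.335). A second TMPRSS2 region just inside, from +6774 to +8342, had 543, 572 and 331 bases in V16D/CTL, compared with 1461, 817 and 1140 in V16D/H19. Its log2 difference was 1.24 (SE 0.27, limma adjusted p = 0.134), the lowest adjusted p among the 14 regions. This second region was weak, with fold values of 4.69, 7.60 and 5.05 and then 6.16, 4.80 and 3.35. Its fold over input had a log2 difference of -0.34 (SE 0.35). The V16D/H19 library 3 peak had a −log10 q of 3.11, so the region could not be fitted with the stricter peaks. Together the TMPRSS2 window had 6.03, 6.41 and 7.50 kb under peaks in V16D/CTL (mean 6.64 ± 0.766, SD, n = 3) and 9.04, 8.14 and 8.49 kb in V16D/H19 (8.56 ± 0.452). The exact two-sided permutation test gave p = 0.1, the smallest that 3 against 3 libraries allow. It was run for each of the 9 genes on peak number and covered length, without adjustment for the number of tests. ABCC4 (both measures) and ZBTB10 (covered length) also reached p = 0.1 in this permutation test. The fold over input of the TMPRSS2 start had a log2 difference of -0.003 (SE 0.25).

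Covered length did not overlap between the lines at 5 of the 14 regions, 3 of them higher and 2 lower in V16D/H19. Over all 15811 sites 7.86% were higher and 6.24% lower without overlap. The higher regions were both TMPRSS2 regions and the weak FKBP5 region on its outer start, and the lower ones were the ZBTB10 start (log2 difference -0.08, SE 0.04) and the FKBP5 region just inside its outer start. The test called 33 of the 15811 sites (0.209%), 20 of them higher in V16D/H19. It called 0 of the 14 regions, of which 4 had an unadjusted p under 0.05, compared with 1487 of all 15811 sites.

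FKBP5 encodes a co-chaperone of steroid receptors and is among the most androgen-responsive genes of prostate cells. Its H3K4me3 was concentrated from +39426 to +43518, around the CpG-rich internal RefSeq start at position 35688915 of chromosome 6. That region (chr6:35685065-35689157) had fold values of 53.0, 54.8 and 45.9 in V16D/CTL, compared with 55.9, 47.6 and 52.1 in V16D/H19. It covered 3857, 3400 and 3644 bases and then 3741, 4052 and 3847. Its mean fold of 51.5 was above that of 60.6% of the start sites and its mean length above that of 95.0%.

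By contrast, the outer FKBP5 start was split into a pair of weak regions. The one on the start (-337 to +377) had fold values of 4.36, 4.27 and 5.17 and then 7.39, 5.95 and 2.82. The one inside it (+427 to +1504) had 15.3, 7.01 and 10.9 and then 9.31, 7.31 and 9.85. The covered length passed the test at neither, with log2 differences of 0.72 (SE 0.27, limma adjusted p = 0.428) and -0.64 (SE 0.20, limma adjusted p = 0.325). A further FKBP5 region upstream, from -4140 to -2745, had 16.4, 14.6 and 17.3 and then 18.9, 18.7 and 16.5. The window of FKBP5 also overlaps the protein-coding gene ARMC12, and regions cannot be assigned to one of them by position alone. The same limit holds for ABCC4, ZBTB10, SLC45A3, STEAP4 and PMEPA1, whose windows overlap noncoding genes.

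**Figure D4:**
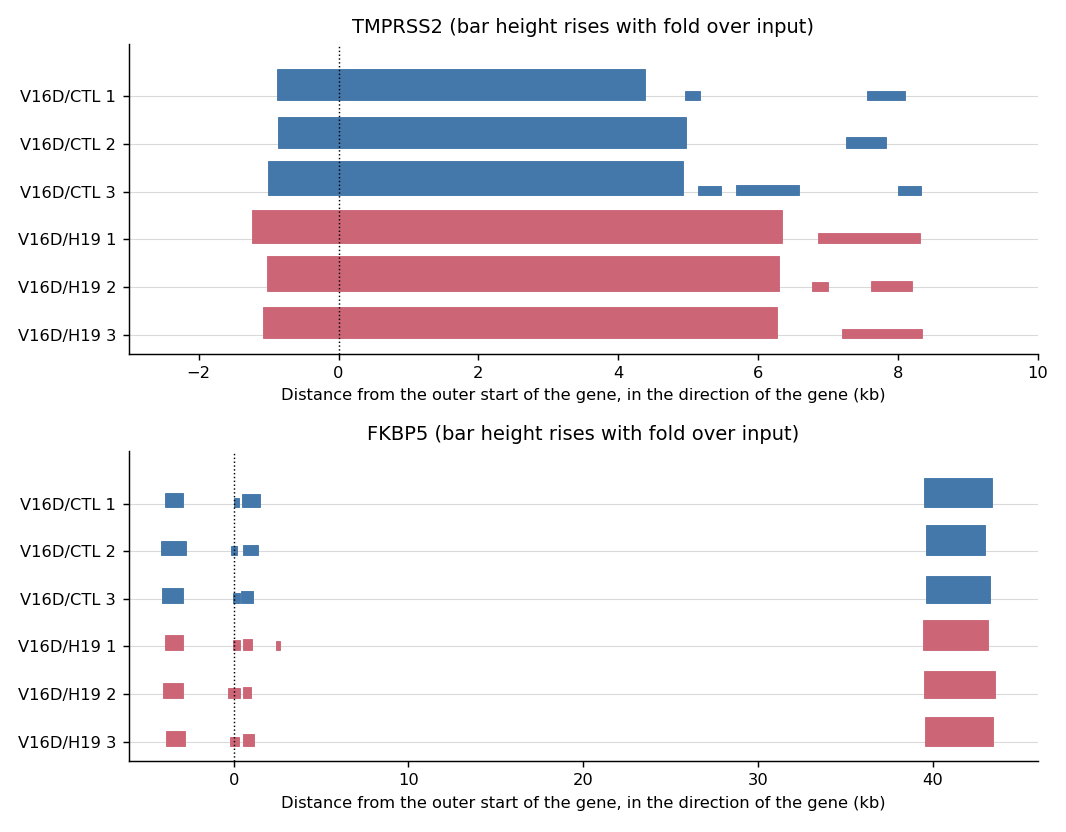
H3K4me3 peaks of each library at TMPRSS2 (top) and FKBP5 (bottom) by distance from the outer start in kb (x axis), 1 row per library, with bars taller where the fold over input is higher. The tall TMPRSS2 start peak ends nearer to the start in the V16D/CTL than in the V16D/H19 libraries. V16D/CTL library 3 has further weak peaks in the start region that reach +6588. The tallest FKBP5 peaks lie at the internal start in all 6 libraries.

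ABCC4 differed in the number of its peaks. In its window of 281.617 kb of gene plus the upstream stretch, the V16D/CTL lists had 8, 8 and 8 H3K4me3 peaks and the V16D/H19 lists 4, 3 and 3. Beyond the start region, inside the gene, the counts were 6, 6 and 5 and then 3, 2 and 2. The start region itself was split into 2, 2 and 3 peaks in V16D/CTL and was 1 peak in each V16D/H19 library, with the extra peaks lying between +2200 and +2923. The peaks beyond the start region were weak, with fold values of 3.93 to 11.5 and a median −log10 q of 5.95, against a median of 92.4 over all H3K4me3 peaks. The difference of -3.33 peaks gave an exact two-sided permutation p of 0.1, the smallest the design allows. ABCC4 was the only one of the 9 genes with fewer peaks in V16D/H19 without overlap, and none had more without overlap. Over the 13963 genes with an H3K4me3 peak the shares were 0.415% and 1.22%. Of the 124 genes with at least 5 peaks on average over the 6 libraries, 2.42% had fewer without overlap.

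Beyond the start, the presence of a peak differed between the lines at several ABCC4 regions. The region from +54985 to +55504 (chr13:95245947-95246466), which the deposited annotation calls intronic, had a peak in all 3 V16D/CTL libraries, with fold values of 9.27, 6.28 and 7.25, and in 1 V16D/H19 library, with 4.26. The region from +85289 to +86515 (chr13:95214936-95216162) had values of 5.52, 5.49 and 5.87 in V16D/CTL and no peak in V16D/H19. Such a pattern, 3 libraries against 0, was seen at 85 of the 20708 sites (0.41%). Of the 20708, 15811 had a peak in all 6 libraries and could not show it, so the share is higher among weak sites. Next to that region, the stretch from +86633 to +87091 had 5.68, 6.46 and 5.27 in V16D/CTL and a peak of 5.68 in V16D/H19 library 2 only. The share of sites with 3 libraries against 1 was not computed. The region from +64090 to +64503 had a peak in 2 V16D/CTL libraries and 1 V16D/H19 library. Regions of a single library began at +55752 and +84231 in V16D/CTL and at +74616 in V16D/H19. The region from +26726 to +27539 had a peak in every library, with 6.94, 11.5 and 7.53 and then 4.71, 9.22 and 5.03, and overlapped between the lines. The covered length of the ABCC4 window was 5.76, 4.83 and 4.60 kb in V16D/CTL, compared with 4.13, 3.77 and 3.07 kb in V16D/H19, again with an exact permutation p of 0.1. Beyond the start region it was 2.29 ± 0.610 kb (SD, n = 3) and 0.961 ± 0.353 kb.

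**Figure D5:**
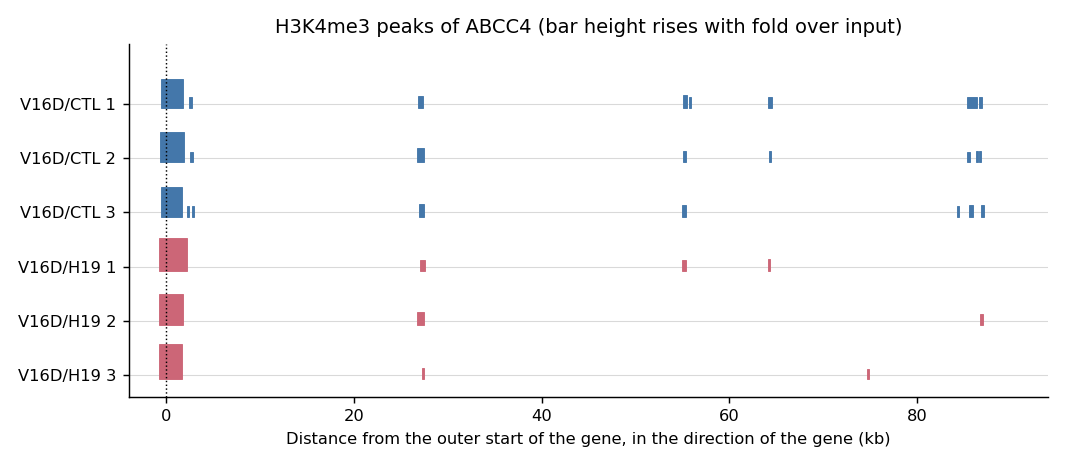
H3K4me3 peaks of ABCC4 by distance from its start in kb (x axis), 1 row per library, with bars taller where the fold over input is higher. The start peak is present in all 6 rows, and beyond the start region, which ends at +2923, the V16D/H19 rows hold 2 or 3 peaks and the V16D/CTL rows 5 or 6.

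SLC45A3 carried a second H3K4me3 region far from its start. It ran from +14453 to +17868 (chr1:205662641-205666056), with fold values of 11.8, 16.3 and 17.3 in V16D/CTL, compared with 17.8, 12.6 and 9.34 in V16D/H19, which overlapped. No RefSeq start of SLC45A3 lies in it. TRPM8 had a cluster of weak peaks from +35489 to +37730, around its RefSeq start 36.4 kb in. The V16D/CTL libraries had 2, 1 and 1 of these peaks and the V16D/H19 libraries 2, 2 and 1, all with fold values between 3.43 and 6.03. Within the cluster, the region that holds that start had a peak in 1 V16D/CTL and 3 V16D/H19 libraries. The region from +35489 to +35889 had one in 2 and 0. The other regions of NDRG1 and PMEPA1 away from the start were each seen in a single V16D/H19 library.

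Summed over the 9 genes, the H3K4me3 peaks numbered 24, 23 and 24 in V16D/CTL (mean 23.7 ± 0.577, SD, n = 3) and 24, 21 and 20 in V16D/H19 (21.7 ± 2.08), with an exact permutation p of 0.4. In lists cut to equal length the counts were 23, 22 and 23 and then 20, 18 and 20, a difference of -3.33 without overlap (exact permutation p = 0.1). The covered length was 39.8, 36.4 and 38.7 kb and then 41.1, 41.0 and 36.3 kb (p = 0.6, exact permutation test). The sum mixed opposite counts: without ABCC4, an alternative added after the data were seen, the other 8 genes had 16, 15 and 16 peaks in V16D/CTL, compared with 20, 18 and 17 in V16D/H19 (p = 0.1, exact permutation test). Their covered length overlapped between the lines (33.2 ± 1.48 and 35.8 ± 2.24 kb, SD, n = 3, exact permutation p = 0.3). More peaks need not mean more mark: SLC45A3 had 3, 3 and 3 and then 3, 4 and 5, with means of 7.48 and 7.05 kb. NDRG1 had 4 peaks in V16D/H19 library 1 alone. The count without ABCC4 was not repeated in lists of equal length. V16D/H19 lists 1 and 2 were the longest of the 6, with 21934 and 21886 peaks, and V16D/H19 list 3 the shortest, with 20048. The part of list length in this count was not tested.

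The deposited differential tables, made from read counts in sites over the replicates, list 5 H3K4me3 sites and 0 H3K27me3 sites under these gene names. Their values are the authors' means per line, as log2 concentrations, without an error. The TMPRSS2 start site went from 10.27 in V16D/CTL to 10.59 in V16D/H19 (difference 0.32). The ZBTB10 start site went from 10.96 to 10.47 (-0.49) and that of SLC45A3 from 10.61 to 10.25 (-0.36). At the SLC45A3 start the fitted fold over input had the other sign (log2 difference 0.16, SE 0.28, limma adjusted p = 0.950). Its covered length had a log2 difference of -0.16 (SE 0.07). The intronic ABCC4 site described above went from 4.41 to 2.32 (-2.09). A site named for ZBTB10, 32 kb beyond the end of the gene, went from 5.71 to 4.02 (-1.69). TMPRSS2 was the only one of the 5 with the higher concentration in V16D/H19.

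The site beyond ZBTB10 had fold values of 9.39, 8.82 and 6.49 in V16D/CTL, compared with 3.55, 3.20 and 5.03 in V16D/H19, without overlap. Its log2 difference of -1.13 (SE 0.34) did not pass the limma test (adjusted p = 0.587). ZBTB10 and NDRG1 lie on chromosome 8 beyond 45 Mb, where the H3K4me3 table lists 10 sites as higher and 142 as lower in V16D/H19, against 445 and 1412 in the whole table. The median log2 difference in fold over input of the 357 sites there was -0.07. The part of this stretch of the chromosome in the ZBTB10 values was not tested.

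Of the 21 sites over the 9 genes, 4 were listed, compared with 9.34% of all 20708 H3K4me3 sites, and 3 of the 8 start sites, compared with 10.8% of the 12255 start sites of protein-coding genes. Of the 3, 1 was higher and 2 were lower in V16D/H19. Listing was more common at wide sites: 15.7% of the widest 25% of start sites were listed against 9.96% of the narrowest, and 6 of the 8 start sites here were in the widest 25%. Whether width accounts for the listing of these genes was not tested. The study itself names ABCC4 and ZBTB10 among androgen signature genes with reduced H3K4me3 under H19 overexpression. Their listing was thus known when the genes were chosen, and the shares above are not independent of that choice.

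The other androgen-regulated genes, a list of 47 genes from general knowledge of the pathway, were read in the same way. An H3K4me3 peak within 1 kb of the start was present in all 6 libraries for 39 of the 47 and in none for 7. An H3K27me3 peak was in the window of 7 genes, compared with 0 of the 9 above. Of the 38 start sites fitted, 0 were called for fold over input and 1 for covered length. Their median log2 difference in fold was -0.05 and in covered length -0.02.

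In the deposited table, 15 of the 40 start sites of this list were listed, and all 15 had the lower concentration in V16D/H19. Over all 12255 start sites, 8.47% were listed as lower and 2.3% as higher. The list's sites were wide too, with 21 of the 38 in the widest 25% of start sites, in which 14.3% were listed as lower. The site called for covered length was that of KLK2, an androgen-induced kallikrein gene next to KLK3. The study names KLK2 too for reduced H3K4me3. It had 2693, 2664 and 2998 bases under peaks in V16D/CTL, compared with 2078, 2025 and 2054 in V16D/H19. The log2 difference was -0.44 (SE 0.06, limma adjusted p = 0.0266), and leaving out any 1 of the 6 libraries, or adding the replicate block, ended the call, with adjusted p between 0.0512 and 0.104. Its fold values were 17.3, 9.28 and 17.1 and then 11.9, 9.49 and 5.62 (log2 difference -0.75, SE 0.36, limma adjusted p = 0.733). Its deposited concentration went from 8.05 to 6.73.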

How the data were processed

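ChIP-seq of H3K4me3 and H3K27me3 was done with 3 libraries per mark in each of the lines V16D/CTL and V16D/H19. Per the labels and the study's methods, the authors aligned reads to hg38, called peaks per library against input with MACS2, merged sites and compared the lines with DiffBind and annotated sites with ChIPseeker (versions not stated). The 12 deposited peak lists, all different, hold for each peak a fold ratio over input, a −log10 p and q and a display score. The authors' 2 differential tables hold log2 concentrations per line, which were used as their means. The deposited columns for the fold, p-value and FDR of their own comparison, and the mean concentration over both lines, were not used.

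Peaks sharing at least 1 base were merged. A site needed a peak in at least 2 libraries. Gene positions were taken from RefSeq (GRCh38.p14), and strands by symbol from GENCODE. Start positions in the differential tables were moved to count from 1. Fold over input (log2, centred on each library's median site) and covered length (log2) were fitted with limma 3.58.1 in R 4.3.3 over all sites with a peak in all 6 libraries, with Benjamini-Hochberg adjustment and a call at an adjusted p under 0.05. Sums per library were compared by exact two-sided permutation tests over 20 assignments. The fits were tested on simulated data. All 9 genes are named. Of the 47 other androgen-regulated genes, those with a called start site are named. An item of the marker lists is not reported here. The genes and lists were chosen with earlier results of these data known. Alternatives were other centrings, another value per site, stricter peaks (−log10 q of at least 5), lists of equal length, other windows, a replicate block and leaving out each library. The lists give no read counts, so no counting interval is given. The study reports sequencing depth per sample in its supplement, and those values were not used here. The p-values measure the spread between the biological triplicates of 1 pair of transduced lines.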

Additional observations from a re-analysis of the deposited data

How the results depend on the processing

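No region of the 9 genes was called under any alternative run, for fold over input or covered length. The alternatives for peak counts can only remove peaks, so the count of 0 H3K27me3 peaks on these genes could not change. As few sites were called anywhere in the genome, the absence of calls on these genes does not show an unchanged mark. Over the genome, the H3K4me3 fold fit called 0 sites and 1 with the width-weighted mean fold, and the H3K27me3 fold fit called 0 of 10934 sites (814 at an unadjusted p under 0.05), 3 without centring, 2 with the replicate block and 0 to 2 with 1 library left out. The covered length fit called 33 sites, 50 with median centring, 15 with the replicate block and 7 to 42 with 1 library left out. The median log2 difference in covered length of the regions was -0.02, and -0.04 to 0.12 (without V16D/CTL replicate 1) with 1 library left out.

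Replicate numbers are shared by the lines, but same-numbered libraries did not deviate together (correlations of -0.0008, 0.026 and 0.019 for H3K4me3 and 0.0089, -0.0094 and 0.0039 for H3K27me3), so the pairing was not used. With the replicate block the difference in H3K4me3 peaks over the 9 genes was -2 by exact sign flips (p = 0.5), and no region of the 9 genes was called. The difference of -2 peaks (exact permutation p = 0.4) was -3.33 in lists of equal length (p = 0.1), turned to 0.333 within 1 kb of the starts and to 2.67 without ABCC4, an alternative chosen after seeing the data, and ranged from -3.17 (p = 0.1, without V16D/H19 replicate 1) to -1.17 (without V16D/H19 replicate 3) with 1 library left out. The ABCC4 count beyond its start kept its direction in every alternative, from -3.67 to -3.17 with 1 library left out. Of the 5 listed sites, 4 overlap a gene window and 2 have concentrations that differ by at least 1.

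Of the 14 regions, the sign of the fold difference changed under at least 1 of 12 alternatives at 5, all with a main value between -0.10 and 0.16, and that of covered length under at least 1 of 9 alternatives at 5, with main values between -0.27 and 0.01. The cause was not tested. Peaks just under the lists' threshold cannot be seen, which limits the presence or absence of the weak ABCC4, FKBP5, TMPRSS2 and TRPM8 peaks. With 3 libraries per line the exact tests cannot give a p below 0.1.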
